A study of Mus musculus with 12 samples.

Results

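The 7 genes described here encode the subcortical maternal complex or its associated proteins, and were taken by name (*Nlrp5*, *Padi6*, *Tle6*, *Khdc3*, *Nlrp2*, *Ooep* and *Zbed3*) from a table of 24259 gene symbols. All 7 were found, and all passed the filter on low values in each comparison. The complex lies beneath the plasma membrane of the growing and fully grown oocyte and is inherited by the early embryo. It is assembled from proteins made by the oocyte, and several of its members are maternal-effect genes, so that embryos of females that lack them stop at the early cleavage stages. PADI6 is also needed for the cytoplasmic lattices, the fibrous structures on which maternal proteins are stored.

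The RNA came from germinal vesicle (GV)-stage oocytes of 3-week-old WT and *Lsm14b*-KO mice, both primed with 5 IU of PMSG and collected 46 h later. KO mice were homozygous for the reporter-tagged insertion allele *Lsm14b* tm1a(KOMP)Mbp, on a C57BL/6J background, and so lacked LSM14B, an RNA-binding protein of the oocyte, throughout oocyte growth. Lysates of about 1500 oocytes, treated with cycloheximide, were run on sucrose gradients of 28 fractions. Fractions 1 to 10 were pooled as ribonucleoprotein (RNP), where mRNAs carry few or no ribosomes, and fractions 11 to 28 as polysomes, where mRNAs carry several. Each of the 4 groups (WT RNP, WT polysome, KO RNP and KO polysome) had 3 libraries, 12 in all. Nothing states that these came from separate oocyte collections, so p-values measure only the spread between these libraries.

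Levels are in FPKM, the fragments of a gene divided by transcript length and by library size, which may be compared between genes. An FPKM is a share of the RNA in its own pool, so a higher value in polysomes than in RNP means enrichment within that pool and not a count of molecules. The smallest FPKM values rise in steps of 1 fragment, and these put the depth of a library at 4.77 to 7.83 M fragments (M, mega), which placed from 589 to 251669 fragments behind each member in each library. *Lsm14b* was at 11.3, 15.3 and 13.2 FPKM in WT polysomes against 0.260, 0 and 0.0876 in KO, and at 34.6, 29.3 and 27.4 against 0.893, 0.0627 and 0 in the RNP pool. The genotypes did not overlap, with an exact permutation p of 0.1 in each pool (two-sided), the smallest that 3 against 3 libraries allow. The oocyte markers (9, among them *Gdf9* and *Zp3*) summed to 22337 to 24273 FPKM in WT and 24513 to 26613 in KO libraries of the polysome pool. In the RNP pool they summed to 7375 to 7637 FPKM in WT and 8039 to 8352 in KO. These sums were thus apart by genotype in both pools, with KO higher. *Gdf9* alone had a mean of 15413 FPKM in WT polysomes, and the single markers were mixed. In KO polysomes 3 of the 9 were called higher (*Zp2*, *Kit* and *Zp3*) and 1 lower (*Dazl*), beside 5.64% and 4.73% of all genes. In KO RNP 2 were called higher (*Gdf9* and *Zp3*) and 2 lower (*Dazl* and *H1foo*), beside 10.5% and 10.2%. The 11 granulosa and cumulus cell markers summed to between 22.1 and 73.0 FPKM in the WT libraries of the polysome pool and between 76.6 and 96.2 in the KO libraries. In the RNP pool these sums were 26.5 to 33.7 FPKM for WT and 38.3 to 60.0 for KO. *Foxl2*, *Amhr2*, *Ptx3* and *Has2* were listed at 0 in all 6 polysome libraries. In the RNP pool 6 of the 11 were at 0 in all WT libraries (*Amh*, *Foxl2*, *Inhba*, *Inhbb*, *Amhr2* and *Ptx3*). Only 1 (*Ptx3*) was at 0 in all KO RNP libraries. Of the granulosa and cumulus cell markers tested, 3 of 5 were called higher in KO polysomes (*Inha*, *Inhba* and *Fshr*), beside 5.64% of all genes. In KO RNP 1 of 3 was called higher (*Inha*), beside 10.5%. *Cyp19a1*, the aromatase gene, was at 37.7 ± 22.0 FPKM (SD, n = 3) in WT polysomes and 24.2 ± 9.94 in KO (-0.54, limma adjusted p = 0.495), and *Kitl* at 1.56 ± 0.937 and 1.48 ± 1.08 (-0.11, adjusted p = 0.919). *Inha*, which encodes an inhibin subunit of granulosa cells, was at 51.4, 39.4 and 39.5 FPKM in KO polysomes against 9.58, 0 and 8.11 in WT. In such bulk RNA more cells of a type and more RNA per cell cannot be told apart, and the part of the granulosa and oocyte markers in the members' values was not tested. The 6 markers of theca, stroma, endothelium and blood summed to 14.1 to 41.8 FPKM, and the 1 tested was not called.

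The members lie on chromosomes 4, 7, 9, 10 and 13 of GRCm38, and the positions given are those of the longest protein-coding transcript in GENCODE M21. *Nlrp5*, which encodes the NLR protein also called MATER, spans chr7:23385901-23441922 on the plus strand with 16 exons, and *Nlrp2*, a relative of it, spans chr7:5298547-5351035 on the minus strand with 12. *Padi6*, a member of the peptidylarginine deiminase family, spans chr4:140727355-140742643 on the minus strand with 16 exons. *Tle6*, a Groucho-family corepressor relative, spans chr10:81590905-81600900 on the minus strand with 14 exons. *Khdc3*, also called *Filia*, spans chr9:73102398-73104438 on the plus strand with 3 exons, and *Ooep*, also called *Floped*, spans chr9:78376109-78378725 on the minus strand with 3. Both encode KH-domain proteins. *Zbed3*, whose product is a zinc-finger protein that binds Axin, spans chr13:95323612-95337841 on the plus strand with 2 exons. The region given for *Ooep* in the deposited table ended at the shorter RefSeq gene (chr9:78376903-78378588), so its FPKM depends on which length was used. The *Nlrp2* region in that table also held *Gm5065*, a gene of the other strand that overlaps the start of *Nlrp2* and had 86.8 to 259.7 FPKM. Strand-specific counting was not stated, so reads where they overlap cannot be told apart. Reads of *Khdc3* may also be shared with *Gm20509*, a gene of the same strand annotated over part of it.

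The upstream regions of 4 members are shown because they span the range of the results: *Nlrp5* and *Padi6* had the largest polysome enrichment and rose in KO, *Nlrp2* was called in neither pool, and *Zbed3* was the one enriched in RNP. Each is the 250 bases before the start site in RefSeq (GRCm38.p6), written 5′ to 3′ on the strand of the gene. Capitals mark CANNTG, the E-box form bound by basic helix-loop-helix proteins such as FIGLA, an oocyte transcription factor.
*Nlrp5*, chr7:23385639-23385888, plus strand: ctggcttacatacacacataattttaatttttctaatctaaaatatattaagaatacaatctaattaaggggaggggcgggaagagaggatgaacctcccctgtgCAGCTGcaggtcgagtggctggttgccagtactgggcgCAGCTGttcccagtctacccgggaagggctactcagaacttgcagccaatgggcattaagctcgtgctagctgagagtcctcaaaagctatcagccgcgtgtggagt
*Padi6*, chr4:140742644-140742893, minus strand: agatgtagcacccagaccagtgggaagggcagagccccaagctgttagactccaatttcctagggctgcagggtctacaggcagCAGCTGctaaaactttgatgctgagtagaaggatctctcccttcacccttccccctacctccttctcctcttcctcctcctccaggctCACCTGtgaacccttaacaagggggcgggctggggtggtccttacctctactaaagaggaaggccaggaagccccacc
*Nlrp2*, chr7:5351036-5351285, minus strand: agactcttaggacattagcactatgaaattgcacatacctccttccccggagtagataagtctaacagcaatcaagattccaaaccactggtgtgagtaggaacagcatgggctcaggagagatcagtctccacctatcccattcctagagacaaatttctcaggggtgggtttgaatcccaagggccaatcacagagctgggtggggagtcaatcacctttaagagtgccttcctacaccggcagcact
*Zbed3*, chr13:95323355-95323604, plus strand: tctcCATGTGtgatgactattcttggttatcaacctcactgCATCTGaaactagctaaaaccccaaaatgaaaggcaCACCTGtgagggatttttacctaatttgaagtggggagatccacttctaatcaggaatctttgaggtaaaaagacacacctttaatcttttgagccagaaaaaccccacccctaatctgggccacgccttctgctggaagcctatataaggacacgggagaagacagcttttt

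CANNTG, which reads the same on both strands, was found in 6 of the 7 members' windows and in 66.2% of the 32851 promoter windows of the same length. It stood 5 times in *Khdc3*, 3 times in *Zbed3*, 2 times each in *Nlrp5*, *Padi6* and *Tle6*, once in *Ooep* and not in *Nlrp2*. TAATTG, a homeodomain form bound by NOBOX, searched on both strands, was found in 1 member (*Ooep*) and in 7.17% of windows. Other homeodomain forms were not searched. TATAAA, searched on both strands, was found in no member's window and in 12.4% of all. GC content of the windows ranged from 43.2% (*Zbed3*) to 67.2% (*Tle6*), with a median of 52.4% over all windows.

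The levels of the members spanned a wide range, as the plot of FPKM by library shows. *Zbed3* was the most abundant transcript of all genes in each of the 6 RNP libraries, and ranked 3 or 4 in each polysome library. The 7 members together took 2.37% to 2.44% of the summed FPKM (without the microRNA gene *Mir300*) in WT polysomes and 2.98% to 3.51% in KO polysomes. In the RNP pool they took 3.68% to 3.88% in WT and 4.35% to 5.19% in KO, of which *Zbed3* alone was 3.43% to 3.66% and 3.96% to 4.76%. The other 6 members rose from 0.220% to 0.246% of the WT RNP sum to 0.393% to 0.429% of the KO RNP sum.

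**Figure D1:**
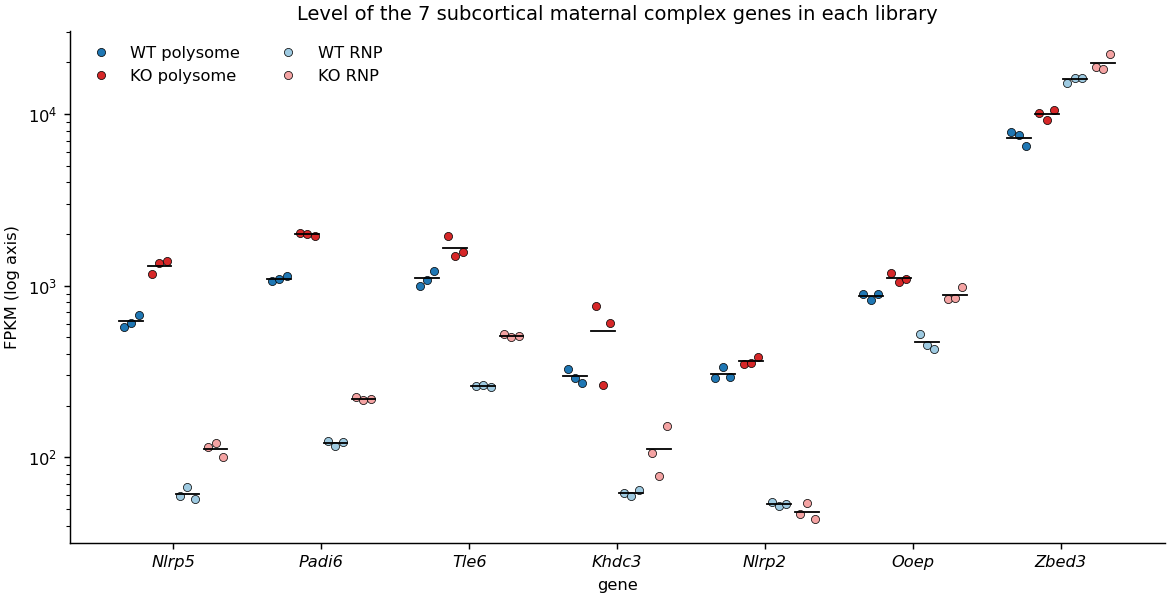
FPKM of the 7 genes (log axis) in each of the 12 libraries, with points for libraries, horizontal bars for group means and colours for genotype and pool. *Zbed3* stands above all other members and is higher in RNP than in polysomes, whereas the other 6 are higher in polysomes.

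In WT polysomes the order of the mean levels was *Zbed3* (7289 ± 729 FPKM, SD, n = 3), *Tle6* (1102 ± 110.1), *Padi6* (1099 ± 34.7), *Ooep* (871 ± 39.6), *Nlrp5* (619.6 ± 52.9), *Nlrp2* (307 ± 25.4) and *Khdc3* (296 ± 27.8). *Tle6* and *Padi6* overlapped in this order, and so did *Nlrp2* and *Khdc3*. In WT RNP the order was *Zbed3* (15912 ± 708), *Ooep* (469 ± 49.0), *Tle6* (261 ± 4.83), *Padi6* (121 ± 3.76), *Khdc3* (62.0 ± 2.14), *Nlrp5* (61.3 ± 5.13) and *Nlrp2* (53.6 ± 1.27). *Khdc3* and *Nlrp5* overlapped there. *Ooep* thus stood below *Tle6* and *Padi6* in polysomes and above both in RNP.

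The first comparison asked how the transcripts divided between polysomes and RNP in WT oocytes. *Nlrp5* and *Padi6* were about 10.1 and 9.06 times as high in polysomes as in RNP by their mean FPKM, *Nlrp2* 5.72 times, *Khdc3* 4.77 times and *Tle6* 4.23 times, while *Ooep* was 1.86 times as high. *Zbed3* lay the other way, 2.18 times as high in RNP. The 6 polysome-enriched members were all called higher in polysomes, against 7.97% of all 9574 genes tested, and *Zbed3* was called lower, as were 6.72% of genes (limma on log2(FPKM + 1), Benjamini-Hochberg adjustment over all genes at 0.05). In each of the 7 genes the libraries of the 2 pools did not overlap, which held for 34.6% of all genes.

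The largest WT difference was that of *Nlrp5*, +3.32 on the log2(FPKM + 1) scale (95% interval 3.02 to 3.61, limma adjusted p = 2.66e-06), which was above 99.9% of genes tested. *Padi6* differed by +3.17 (2.95 to 3.39, adjusted p = 8.50e-07), and *Nlrp2* by +2.49 (2.19 to 2.80). *Khdc3* and *Tle6* differed by +2.23 (1.92 to 2.54) and +2.07 (1.84 to 2.31). *Ooep* differed by +0.90 (0.66 to 1.13, adjusted p = 0.00103), a smaller value than that of any other polysome-enriched member, and the intervals do not overlap. Without an intensity trend its adjusted p was 0.0582. *Zbed3* differed by -1.13 (-1.31 to -0.95, adjusted p = 6.56e-05). The median over the members was +2.23, beside a median of -0.09 over all genes.

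In KO the division followed the same signs: 6 members were called higher in polysomes, against 15.5% of 9851 genes, and *Zbed3* was called lower, against 13.8%. The libraries of the pools did not overlap in any of the 7, nor in 44.2% of all genes. *Nlrp5* differed by +3.53 (3.30 to 3.77), *Padi6* by +3.18 (3.02 to 3.34), *Nlrp2* by +2.89 (2.63 to 3.16), *Khdc3* by +2.19 (1.36 to 3.02) and *Tle6* by +1.70 (1.47 to 1.92). *Zbed3* differed by -0.99 (-1.17 to -0.80). *Ooep* differed by +0.32 (0.13 to 0.52, adjusted p = 0.0219), and this call was lost when the libraries were rescaled to the same sum without *Mir300* (+0.14, adjusted p = 0.253, with the median of all genes moved from -0.04 to -0.19), when they were quantile normalised (+0.02, adjusted p = 0.891), when no filter (adjusted p = 0.0727) or no intensity trend (adjusted p = 0.1995) was used, and without KO RNP replicate 1 (+0.28, adjusted p = 0.0916) or 2 (+0.29, adjusted p = 0.0859).

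**Figure D2:**
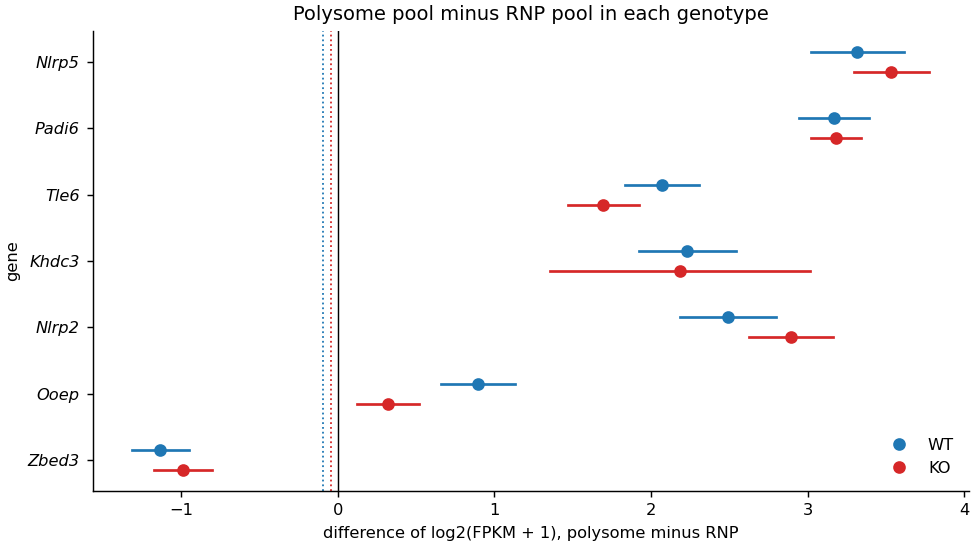
Polysome minus RNP difference of log2(FPKM + 1) for each member in WT (blue) and KO (red), with 95% intervals from limma, filled points for adjusted p under 0.05 and dotted lines for the median of all genes. *Nlrp5* and *Padi6* lie farthest to the right (3.17 to 3.53), *Ooep* lies nearest to 0 and *Zbed3* is the one member to the left.

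Most polysome-enriched members had short 3′UTRs. The longest protein-coding transcripts of *Nlrp5*, *Tle6*, *Nlrp2*, *Padi6* and *Khdc3* carried 3′UTRs of 109, 130, 189, 221 and 246 bases, against 1446 in *Ooep*, 1085 in *Zbed3* and a median of 1105 over 8915 tested genes with a model. A 3′UTR under 250 bases was held by 13.3% of these 8915 genes. This limit lay just above the longest of the 5, that of *Khdc3*, so the share depends in part on where it was set. The median polysome minus RNP difference in WT was -0.09 for genes under the limit, close to that of genes with longer 3′UTRs (-0.08). In KO these medians were -0.20 and near 0 (-0.0020), so that genes with short 3′UTRs were on the whole less polysome-enriched there, unlike these 5 members. The *Ooep* length is that of the GENCODE model, which ends at chr9:78376109. The deposited region of *Ooep* ended at 78376901, so the 3′UTR behind its FPKM may be shorter, with other last bases. *Zbed3* was the one member with a cytoplasmic polyadenylation element (CPE, TTTTAT or TTTTAAT) in the last 100 bases. The CPE is bound by CPEB1, which controls poly(A) length and translation of stored oocyte mRNAs. Such a match was held by 19.6% of genes, with a median difference of -0.30 in WT against -0.03 without it. The ends of 3 transcripts are shown for this contrast, with the last of the 2 CPE matches in capitals for *Zbed3* and the polyadenylation hexamer AATAAA in capitals for the others, from GENCODE M21 (GRCm38).
*Zbed3*, chr13:95337812-95337841, plus strand: tttttttttaataaacTTTTATttatctgc
*Nlrp5*, chr7:23441887-23441916, plus strand: tagcaagaatgaAATAAAcacagcatttag
*Padi6*, chr4:140727361-140727390, minus strand: tgccatagagccAATAAAgcatggtattct

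AATAAA or ATTAAA lay in the last 40 bases of 6 members, *Ooep* being the one without it in this model, and of 77.1% of genes. The sequence ends 8 bases after the CPE of *Zbed3*. The *Zbed3* stretch also holds AATAAA, in lower case, 15 bases from the end, so the marked CPE lies after this hexamer.

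The next comparison asked which members differed between KO and WT in the polysome pool. *Nlrp5*, *Padi6*, *Tle6* and *Zbed3* were higher in KO, by 2.11, 1.82, 1.51 and 1.37 times, so that 4 of 7 members were called higher, against 5.64% of all 9536 genes tested, and none was called lower, against 4.73%. *Ooep*, *Khdc3* and *Nlrp2* did not pass the test. Without a filter on low values 2 members were called (*Nlrp5* and *Padi6*), and without an intensity trend in the model 1 (*Nlrp5*; *Padi6* had an adjusted p of 0.0623). The median over the members was +0.59, beside +0.10 over all genes.

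*Nlrp5* had 573, 609 and 677 FPKM in WT polysomes and 1177, 1361 and 1384 in KO polysomes. The lowest KO library was well above the highest WT library, and the difference was +1.08 (SE 0.108, adjusted p = 0.00182 from limma). *Padi6* had 1069, 1092 and 1137 FPKM in WT and 2039.7, 2003 and 1955 in KO, a difference of +0.86 (SE 0.0803, adjusted p = 0.00145). Its libraries lay closer together than those of any other member in the polysome pool, with SDs of 0.0454 and 0.0308 on the log2 scale in WT and KO, against medians of 0.217 and 0.184 over the 1692 genes that averaged 50 FPKM or more.

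*Tle6* had 1001, 1086 and 1219 FPKM in WT polysomes and 1941, 1493 and 1568 in KO, a difference of +0.59 (SE 0.124, adjusted p = 0.0215). The groups did not overlap, but the call was lost in 3 of the 6 fits that left out 1 library, with adjusted p of 0.0569 without WT replicate 1, 0.0502 without WT replicate 2 and 0.0530 without KO replicate 3. It was also lost when the libraries were rescaled to the same sum without *Mir300* (+0.48, adjusted p = 0.0661). *Zbed3* had 7882, 7509 and 6476 FPKM in WT polysomes and 10200, 9208 and 10582 in KO, a difference of +0.46 (SE 0.0949, adjusted p = 0.0200). Without KO replicate 3 its difference was +0.42 (adjusted p = 0.0785), and under quantile normalization it was +0.13 (adjusted p = 0.437).

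*Ooep* had 894, 825 and 894 FPKM in WT polysomes and 1178.5, 1047 and 1091 in KO. The groups did not overlap, and the difference of +0.34 (95% interval 0.13 to 0.55) had an adjusted p of 0.0501 from limma, just above the threshold, and of 0.0374 with a filter at 5 FPKM. *Nlrp2* had 289.9, 336 and 295 FPKM in WT and 351, 355 and 385 in KO, a difference of +0.24 (-0.01 to 0.50, adjusted p = 0.212). *Khdc3* had 326, 289.6 and 271 FPKM in WT and 759.6, 263 and 603 in KO. KO replicate 2 lay below all 3 WT libraries, and the difference of +0.74 had an interval of -0.02 to 1.50 (adjusted p = 0.199). Without that library it was +1.20 (adjusted p = 0.00949). The SD of *Khdc3* in KO polysomes, 0.804 on the log2 scale, was above that of 99.5% of the 1692 genes.

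In the RNP pool 6 of 7 members were called higher in KO, against 10.5% of 9931 genes, while none was called lower, against 10.2%, and *Nlrp2* was not called. The calls of *Khdc3* and *Zbed3* were lost without a filter on low values (adjusted p = 0.0913 and 0.149) and without an intensity trend (adjusted p = 0.0989 and 0.249). By mean FPKM, *Tle6* was 1.96 times, *Ooep* 1.89 times, *Nlrp5* 1.83 times, *Padi6* 1.81 times, *Khdc3* 1.80 times and *Zbed3* 1.25 times the WT level. The median over the members was +0.85, beside +0.05 over all genes. The KO libraries lay above the WT libraries in both pools for 5 members (*Nlrp5*, *Padi6*, *Tle6*, *Ooep* and *Zbed3*), a separation seen in 9.4% of the 9100 genes tested in both.

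*Tle6* had 261, 265 and 256 FPKM in WT RNP and 519.6, 502 and 509.8 in KO RNP, a difference of +0.97 (SE 0.0727, adjusted p = 5.77e-05 from limma). *Ooep* had 523, 454 and 429 FPKM in WT and 831, 847 and 978 in KO, a difference of +0.92 (SE 0.0970, adjusted p = 0.000363). In both genes the KO libraries lay above all WT libraries with a wide gap. *Nlrp5* had 59.4, 67.1 and 57.3 FPKM in WT and 115, 121 and 99.9 in KO, a difference of +0.86 (SE 0.130, adjusted p = 0.00225). *Padi6* had 124, 117 and 123 FPKM in WT and 223, 217 and 218 in KO, a difference of +0.85 (SE 0.0911, adjusted p = 0.000386). Both genes were scarce in RNP beside their polysome levels, and their groups did not overlap.

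*Khdc3* had 62.0, 59.8 and 64.1 FPKM in WT RNP and 106, 77.4 and 152 in KO RNP, a difference of +0.79 (SE 0.215, adjusted p = 0.0303). The groups did not overlap, and KO replicate 2 was again the lowest of the KO libraries. Its call was lost in 5 of the 6 fits that left out 1 library, at adjusted p of 0.0705, 0.0638 and 0.0521 without WT RNP replicates 1, 2 and 3, and 0.0774 and 0.0816 without KO RNP replicates 1 and 3. *Zbed3* had 15095, 16318 and 16324 FPKM in WT RNP and 18931, 18354 and 22246 in KO RNP, a difference of +0.31 (SE 0.0688, adjusted p = 0.0121). Quantile normalization set this difference to 0, since *Zbed3* held the highest value in each of these libraries. *Nlrp2* had 54.8, 52.3 and 53.8 FPKM in WT and 46.9, 54.4 and 43.4 in KO, a difference of -0.16 (-0.48 to 0.17, adjusted p = 0.486), and the groups overlapped.

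**Figure D3:**
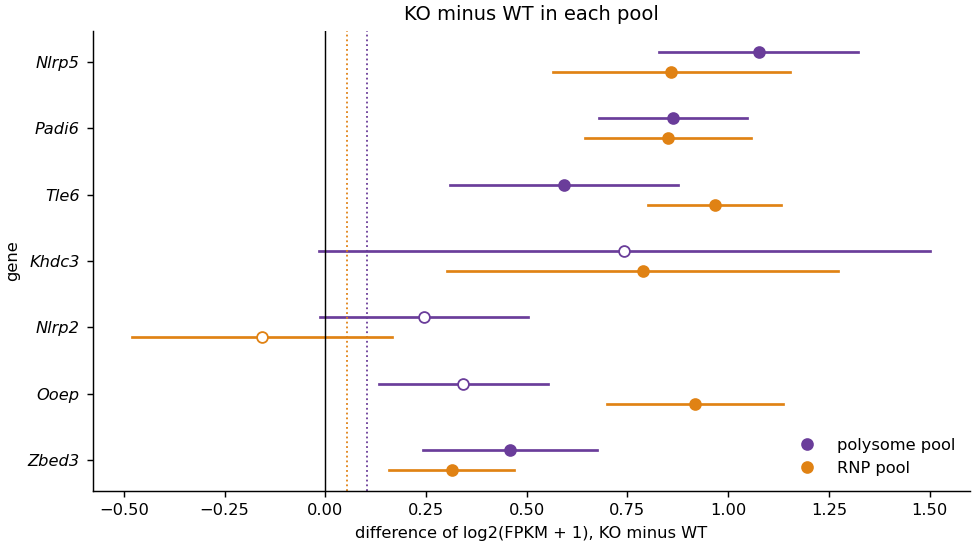
KO minus WT difference of log2(FPKM + 1) for each member in the polysome pool (purple) and the RNP pool (orange), with 95% intervals from limma, filled points for adjusted p under 0.05, open points for the others and dotted lines for the median of all genes. *Nlrp5* and *Padi6* lie near +0.9 to +1.1 in both pools, *Ooep* and *Tle6* lie farther right in RNP than in polysomes, and both intervals of *Nlrp2* cross 0.

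Whether KO changed the division between pools was tested with an interaction term in a model of all 12 libraries, where 0.237% of 10949 genes (26) were called. None of the 7 members was called by limma, while 3 of 7 had an unadjusted p under 0.05, as did 11.1% of all genes (1220). *Ooep* had the largest difference, -0.57 (-0.86 to -0.29, limma adjusted p = 0.114), that is, less polysome enrichment in KO, from 1.86 times to 1.25 times by mean FPKM. *Tle6* moved the same way, -0.37 (-0.68 to -0.06, adjusted p = 0.341), and *Nlrp2* the other way, +0.40 (0.04 to 0.76, adjusted p = 0.392). The interval of *Padi6* was -0.21 to 0.23, that of *Nlrp5* -0.13 to 0.56, that of *Zbed3* -0.12 to 0.41 and that of *Khdc3* -1.01 to 0.92.

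Because all members are measured in the same library, the ratio of one to another does not depend on a factor that scales the whole library. Quantile normalization is not such a factor and can change the ratio. *Nlrp5* was divided by each of the other members, a measure chosen after the values were seen. In the polysome pool *Nlrp5* was 1.98, 1.81 and 2.29 times *Nlrp2* in WT and 3.36, 3.84 and 3.60 times in KO. In the RNP pool the ratios were 1.08, 1.28 and 1.07 in WT and 2.45, 2.23 and 2.30 in KO. The ratio was thus 1.77 and 2.03 times higher in KO, in polysomes and RNP. *Nlrp5* to *Ooep* went from 0.712 ± 0.0624 (SD, n = 3) to 1.19 ± 0.165 in polysomes, and from 0.132 ± 0.0173 to 0.128 ± 0.0225 in RNP. *Nlrp5* to *Padi6* differed little, from 0.563 ± 0.0301 to 0.655 ± 0.0688 in polysomes and from 0.506 ± 0.0586 to 0.510 ± 0.0509 in RNP.

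Of the 12 ratios, 6 did not overlap between genotypes. In polysomes these were the ratios to *Nlrp2*, *Zbed3*, *Ooep* and *Tle6*, which is 4 of 6, and in RNP those to *Nlrp2* and *Zbed3*, which is 2 of 6. *Nlrp5* divided by any tested gene above 0 in each library gave no overlap for 58.2% of 8046 genes in polysomes and 57.7% of 8811 in RNP, so these counts are near the background or under it. The exact permutation p of each of the 6 ratios was 0.1 (two-sided), the smallest that 3 against 3 libraries allow, and 0.2 after Benjamini-Hochberg adjustment over the 12 ratios.

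**Figure D4:**
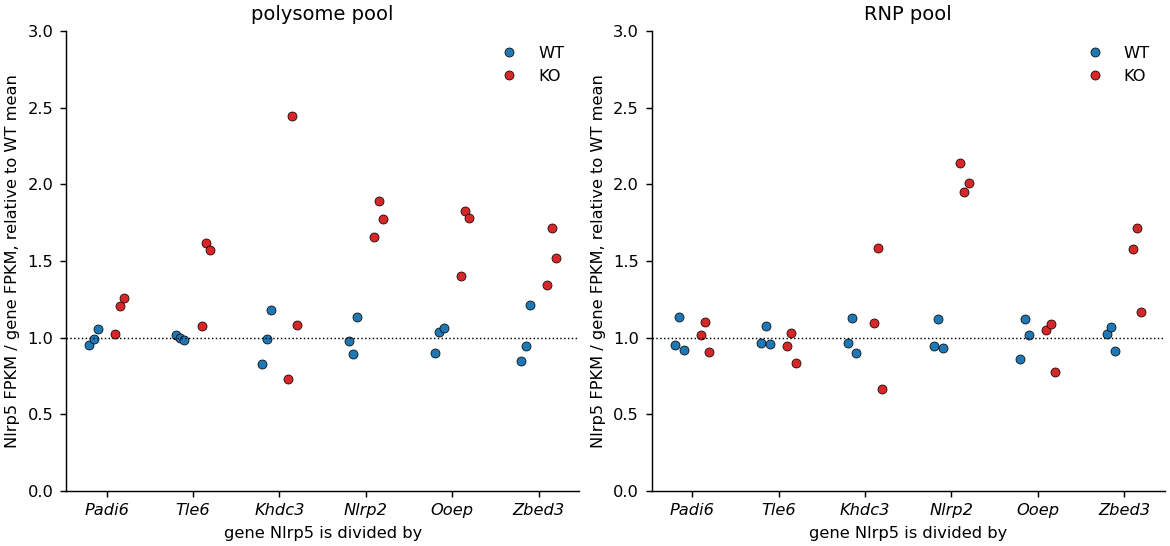
FPKM of *Nlrp5* divided by that of each other member in the same library, relative to the WT mean, for 3 WT (blue) and 3 KO (red) libraries in the polysome pool (left) and the RNP pool (right). The KO points for *Nlrp2* and *Zbed3* stand above all WT points in both pools, whereas those for *Ooep* and *Tle6* do so in the polysome pool and overlap WT in RNP.

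Genes of 4 proteins that bind the complex or the lattices were in the table (*Nlrp14*, *Nlrp4f*, *Uhrf1* and *Ube2d3*). In KO polysomes 3 of the 4 were higher and in KO RNP all 4 were, against 5.64% and 10.5% of all genes, with medians of +0.69 and +0.64 beside +0.10 and +0.05. *Nlrp14*, an NLR gene needed for early development, had 2565, 2680 and 2475 FPKM in WT polysomes and 5396, 6350.4 and 6296 in KO, a difference of +1.22 (adjusted p = 0.000437 from limma). In RNP it had 256, 214 and 271 FPKM in WT and 868, 918 and 844 in KO, a difference of +1.83 (adjusted p = 9.73e-06). *Uhrf1*, which encodes a factor of DNA methylation maintenance, differed by +0.73 in polysomes and +0.44 in RNP, and *Ube2d3*, a ubiquitin-conjugating enzyme gene, by +0.66 and +0.83. *Nlrp4f* was at +0.27 in polysomes (adjusted p = 0.198) and was called in RNP (+0.39, adjusted p = 0.0131).

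Of 10 other oocyte *Nlrp* genes tested, which include *Nlrp14* and *Nlrp4f*, 5 were higher in KO polysomes and 8 in KO RNP (5.64% and 10.5% of all genes), and none was lower. *Nlrp9b* and *Nlrp4b* differed by +1.16 and +0.95 in polysomes, and *Nlrp9a* and *Nlrp4b* by +1.21 and +1.08 in RNP. Members of this family are alike in sequence and can share reads. In WT 6 of the 10 were higher in polysomes than in RNP, against 7.97% of all genes, with *Nlrp14* at +3.38 and *Nlrp9a* at +2.12. Of 4 KH-domain relatives of *Ooep* and *Khdc3*, 2 were higher in KO polysomes and 3 in KO RNP, against the same 5.64% and 10.5%, with *Dppa5a* at +1.39 and +1.60. *Khdc1b* had a change in the division between pools (-0.83, adjusted p = 0.0204), from 1506 FPKM in polysomes and 1793 in RNP in WT to 2051 and 4341 in KO. This call was lost in 8 of 22 alternatives, among them the block of pools (adjusted p = 0.104), no filter (0.0671), no intensity trend (0.3096), and the fits without WT RNP replicate 2 or 3 (0.0543 and 0.0650) or without KO RNP replicate 1, 2 or 3 (0.0797, 0.0630 and 0.0765).

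Of the 4 other *Padi* genes, none passed the filter in either KO comparison, and *Padi3* was listed at 0 in each library. Of 5 *Tle* relatives 3 were tested and none was called between genotypes, and the same was true of the 1 *Zbed* relative tested. *Tle4*, 1 of the 3 tested, was called higher in polysomes than in RNP in KO (+1.11, limma adjusted p = 0.0361), at levels of 5.35 and 1.92 FPKM. Of all genes 15.5% were called higher in that comparison. Of the cytoskeleton and Wnt partners, *Cfl1*, which encodes the actin-severing protein cofilin, was higher in KO in both pools (+0.67 and +0.72), and the other 3 tested were not called. Over all genes 5.64% were called higher in KO polysomes and 10.5% in KO RNP.

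Among 6 tested regulators of oocyte transcription, 2 were higher in KO polysomes and, in RNP, 3 were higher and 1 lower. Over all genes these shares were 5.64% in polysomes, and 10.5% higher and 10.2% lower in RNP. *Nobox*, a homeobox gene of the growing oocyte, was 375 ± 25.3 FPKM in WT polysomes and 1114 ± 51.5 in KO (+1.57, adjusted p = 0.000334), and 334 ± 22.1 and 1492 ± 76.1 FPKM in RNP (+2.16). *Figla* was called in RNP (+1.26) and had +0.50 in polysomes (adjusted p = 0.297). *Lhx8*, a LIM-homeobox gene, was at +0.66 and +0.55, and *Sohlh2* was lower in RNP (-2.38). Of 10 other maternal-effect genes, 1 was higher in KO polysomes (*Dppa3*, +0.86) and 1 lower (*Zar1*, -1.15), while in RNP 4 were higher (led by *Npm2*, *Dppa3* and *Zfp57*, at +0.52, +0.49 and +0.38) and 1 lower (*Trim24*, -0.67). Apart from the 4 of 10 in RNP, beside 10.5% of all genes, these counts are near the background (5.64% higher and 4.73% lower in polysomes, 10.2% lower in RNP). The medians of this list were +0.15 and +0.37.

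The 5 genes whose means over the 4 groups lay closest to the members' median profile, among the 6671 genes that averaged 5 FPKM or more, were *Laptm4b*, *Rsl24d1*, *Hat1*, *Rab11b* and *Snrpb*, with a root mean square difference of 0.0289 to 0.0690 on the log2(FPKM + 1) scale. The median gene differed by 1.23. *Laptm4b* had mean levels of 951 FPKM in WT polysomes, 1519 in KO polysomes, 210.4 in WT RNP and 339 in KO RNP. Of the members, *Khdc3* (0.0369) and *Tle6* (0.177) lay closest to their own median profile, and *Zbed3* (1.62) farthest.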

How the data were processed

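Polysome and RNP RNA of GV-stage oocytes was amplified by Smart-seq2 and sequenced as paired-end reads in 12 libraries. The authors mapped reads to mm10 with TopHat2 2.0.13 and deposited FPKM per gene symbol from Cufflinks 2.2.1, with replicates kept separate. The gene annotation release is not given in the sources used here. The deposited table also holds log2 changes, p-values and q-values from the authors' cuffdiff comparisons, which were not used. FPKM holds no counts, so KO and WT were compared in each pool, and the pools in each genotype, on log2(FPKM + 1) with limma 3.58.1 (R 4.3.3), with an intensity trend, on genes with at least 1 FPKM in at least 3 libraries of the comparison, with Benjamini-Hochberg adjustment over all genes at 0.05. The change in division was the interaction over all 12 libraries. Fold changes on this scale are slightly understated for low genes. Tables and figures were made in Python 3.11.15 (matplotlib 3.10.9, scipy 1.17.1, pandas 2.3.3). Depth was estimated with the transcript length less 200 bases, and fragments are not independent molecules. Only the fit of KO against WT in polysomes was run on simulated data, with independent noise per gene and changes larger than those of most members. That run does not cover the interaction or effects shared within a library.

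Named are the 7 members, *Lsm14b*, at most 3 genes per direction with the largest change among those called in each list, and the 5 genes most alike. *Gm5065*, *Gm20509*, *Mir300*, *Nlrp4f*, *Figla* in polysomes, *Padi3*, *Cyp19a1*, *Kitl*, the markers listed at 0 and further values of genes named in another comparison fall outside this rule and were named after their values were seen. The members and lists were chosen with earlier results of these data known. Alternatives were pseudocounts of 0.1 and 5, no filter and a filter at 5 FPKM, 3 other scalings, no intensity trend, replicate blocks, and each library left out. Gene models came from GENCODE M21 and promoters from RefSeq (GRCm38.p6).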

Additional observations from a re-analysis of the deposited data

How the results depend on the processing

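Over the 5 comparisons, 549 of 588 values of the members under an alternative kept their direction and their side of the threshold, 28 fell short of it, 2 passed it and 9 changed sign, all 9 in the interaction. There *Padi6* (+0.01) was -0.0299 with the same median, -0.10 with quantile normalization and -0.0451 with the same sum without *Mir300*, and ranged from -0.0073 to +0.0384 with 1 library left out. *Khdc3* (-0.05) was +0.03 without WT polysome replicate 1, +0.41 without KO polysome replicate 2 and +0.20 without KO RNP replicate 3, and ranged from -0.36 to +0.41. Neither was called in any of these fits. In KO polysomes against WT the members called (4) were 2 without a filter on low values and 1 without an intensity trend, and 2 to 5 with 1 library left out (2 without KO polysome replicate 3, 5 without KO polysome replicate 2). All genes called there (989) were 545 and 508 under those settings and 383 to 790 with 1 library left out. In RNP all genes called (2057) ranged from 1255 to 1911, and in WT between pools (1406) from 780 to 1212, with 728 without an intensity trend. In the interaction (26) they were 45 with the same sum without *Mir300*, 6 without an intensity trend, and 0 to 46 with 1 library left out. The cause of these moves was not tested. Scaling to the same sum without *Mir300*, which was at 170810 FPKM in KO polysome replicate 2 and at 0 elsewhere, moved the median of all genes by -0.10 in WT and -0.15 in KO between pools. With it, calls higher and lower were 428 and 562 in place of 538 and 451 in KO polysomes, 906 and 1125 in place of 1044 and 1013 in KO RNP (1239 and 934 with the same median), 638 and 857 in place of 763 and 643 between pools in WT, 1192 and 1837 in place of 1523 and 1358 in KO, and 10 and 35 in place of 9 and 17 in the interaction.

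Same-numbered libraries did not deviate together over 10949 genes (correlations of -0.0207 to 0.0255), and no pairing is stated. This cannot exclude that same-numbered libraries belong together, since the noise of low genes can hide a shared deviation. With the replicate number as a block, no call of a member changed, and the interaction had 11 genes called; with the pools of 1 genotype as the block it had 0 by limma, with 1129 genes at an unadjusted p under 0.05. FPKM tables hold no counts, so depth limits the low members of the lists more than the 7 genes, each with at least 589 estimated fragments.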

Other observations

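*Khdc3*, *Tle6*, *Zbed3* and *Zar1* were lowest in replicate 2 among the KO libraries of both pools. The last is a maternal-effect gene that encodes an RNA-binding protein. The share of all genes with this order was not computed. *Zar1* had 2022, 776 and 1341 FPKM in KO polysomes and 902, 584 and 1236 in KO RNP, against 2747, 3142 and 2661 in WT polysomes and 701, 1012 and 952 in WT RNP. This was noticed after the values were seen and was not tested. *Tle6* had 1941, 1493 and 1568 FPKM in KO polysomes and 519.6, 502 and 509.8 in KO RNP, where its libraries lay close together. For *Zbed3* these values were 10200, 9208 and 10582 in KO polysomes and 18931, 18354 and 22246 in KO RNP. *Padi6* did not share this order, at 2039.7, 2003 and 1955 FPKM in KO polysomes, lowest in replicate 3.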
